A study of Mus musculus with 8 samples.

Results

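The genes described here are receptor tyrosine kinases and the ephrins, the membrane-bound ligands of the Eph receptors. They were taken by symbol from a list of 48 genes, and all 48 were found among the 54838 genes of the deposited tables. The list holds 12 Eph receptors, 8 ephrins, 4 ErbB receptors, 2 receptors of the MET family, 4 FGF receptors, 8 vascular and haematopoietic receptors, 2 collagen receptors, 4 receptors that bind WNT ligands and 4 insulin or neurotrophic receptors. Receptors for PDGF, IGF and the TAM ligands were left out on purpose. Of the 48 genes, 29 passed the filter on low counts and were tested, and 19 did not.

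The tested cells were 7 subclones of 3H3PM, numbered 1, 2, 3, 6, 7, 8 and 9 in the labels, with 1 RNA-seq library each. 3H3PM are 3H3P cells with ectopic MYC, and each subclone was isolated from a tumour these cells formed in nude mice and then cultured. They were set against 1 library of 3H3P, in which Trp53 had been knocked out with CRISPR/Cas9. Both groups thus carry the Trp53 knockout and the Hras mutation of the parental mouse line 3H3, which was established from a liver tumour of an MC4R-knockout mouse on a C57BL/6 background given a high-fat diet. Which vector drives MYC, and from which species it comes, was not given in the sources used here. Nude mice lack a thymus and so most T cells, but keep stromal, endothelial and myeloid cells. MYC, growth in mice and isolation of subclones cannot be told apart in this design, nor can a change in the number of cells of a kind from a change of RNA per cell. The subclones are separate isolates, so their spread is between isolates.

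Receptor tyrosine kinases span the cell membrane. A ligand outside the cell joins receptors into pairs or clusters, their kinase domains phosphorylate tyrosines on one another, and adaptors that bind these tyrosines pass the signal to RAS, PI3-kinase and phospholipase C. Eph receptors differ in that their ligands sit on the neighbouring cell, A-type ephrins by a lipid anchor and B-type ephrins by a transmembrane segment, so that contact between cells starts signals in both. In liver, EGFR and MET support hepatocyte growth and regeneration, FGFR4 with its co-receptor KLB limits bile acid synthesis, and the VEGF and TIE receptors belong mainly to endothelium.

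Library totals ran from 12838493 to 17987059 rounded expected counts in the subclones, and the library labelled 3H3P held 16855969. Trp53 averaged 53.9 ± 7.45 CPM in the subclones (SD, n = 7), against 212 CPM in the library labelled 3H3P, and mouse Myc averaged 6.54 ± 3.58 CPM against 85.2 CPM. A frameshift need not remove a transcript, and MYC of another species need not be counted as mouse Myc, so neither value checks a label, and the labels serve as names. By CPM, the library labelled 3H3P lay outside the range of the 7 subclones for 19 of the 29 tested genes described here. The share over all tested genes was 57.4%. The cells are labelled hepatocellular carcinoma, and 10 hepatocyte markers summed to 0.37 to 12.8 TPM in the subclones and 139 TPM in the library labelled 3H3P. Most of the sum in 3H3P was Apob and Hnf4a, both called lower, at no more than 1.44 and 3.80 TPM in a subclone, against 97.5 and 38.0 TPM in 3H3P. Alb reached at most 1.71 TPM in a subclone, against 2.79 TPM in 3H3P, and Cps1 had no count in any library. Of the 4 tested hepatocyte markers, Afp alone went the other way and was not called. It was at 0.34 to 5.75 TPM in the subclones and 0.25 TPM in 3H3P, above it in 7 of 7. Simple epithelial markers (7 genes) summed to 69.1 to 313 TPM in the subclones, against 1533 TPM in 3H3P, and 3 of 4 tested ones, Krt8, Krt18 and Cdh1, were called lower, while Epcam had no count. Of 10 macrophage markers Cd14 alone was called, lower at 25.4 to 108 TPM in the subclones against 358 TPM in 3H3P. The other 9 summed to 2.84 to 10.8 TPM in the subclones and 4.56 TPM in 3H3P. The pan-leukocyte marker Ptprc reached at most 0.03 TPM in a subclone and was at 0 in 3H3P. Of 10 lymphocyte and mast cell markers, 9 had no count in any library. In the fibroblast and stellate list (10 genes) markers went opposite ways. Dcn was called lower, at no more than 0.07 TPM in a subclone against 106 TPM in 3H3P, and the other 9 summed to 1.01 to 99.4 TPM in the subclones against 0.49 TPM in 3H3P. Most of the highest sums was Pdgfra, which was at 54.1 and 92.8 TPM in subclones 6 and 8 and was not called. Lum, Thy1 and Lrat were at 0 throughout.

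Levels below are in TPM (transcript abundance scaled by transcript length and to one fixed total per library), which can be compared between genes. Fold changes and tests come from counts, and a gene was called where its adjusted p by edgeR's quasi-likelihood test over all 14634 tested genes was under 0.05. The receptor genes with the most mRNA were largely shared between the groups. At 10 TPM or more stood 16 of the 48 genes by their mean in the subclones and 16 in the library labelled 3H3P, 12 of them in both. Fgfr2 ranked first in both groups, at a mean of 185 TPM in the subclones and 114 TPM in 3H3P. Efna1 had rank 2 in the subclones and rank 9 in 3H3P, Fgfr3 rank 3 and rank 20, and Ptk7 rank 9 and rank 21. Egfr went the other way, at rank 20 in the subclones and rank 8 in 3H3P.

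**Figure D1:**
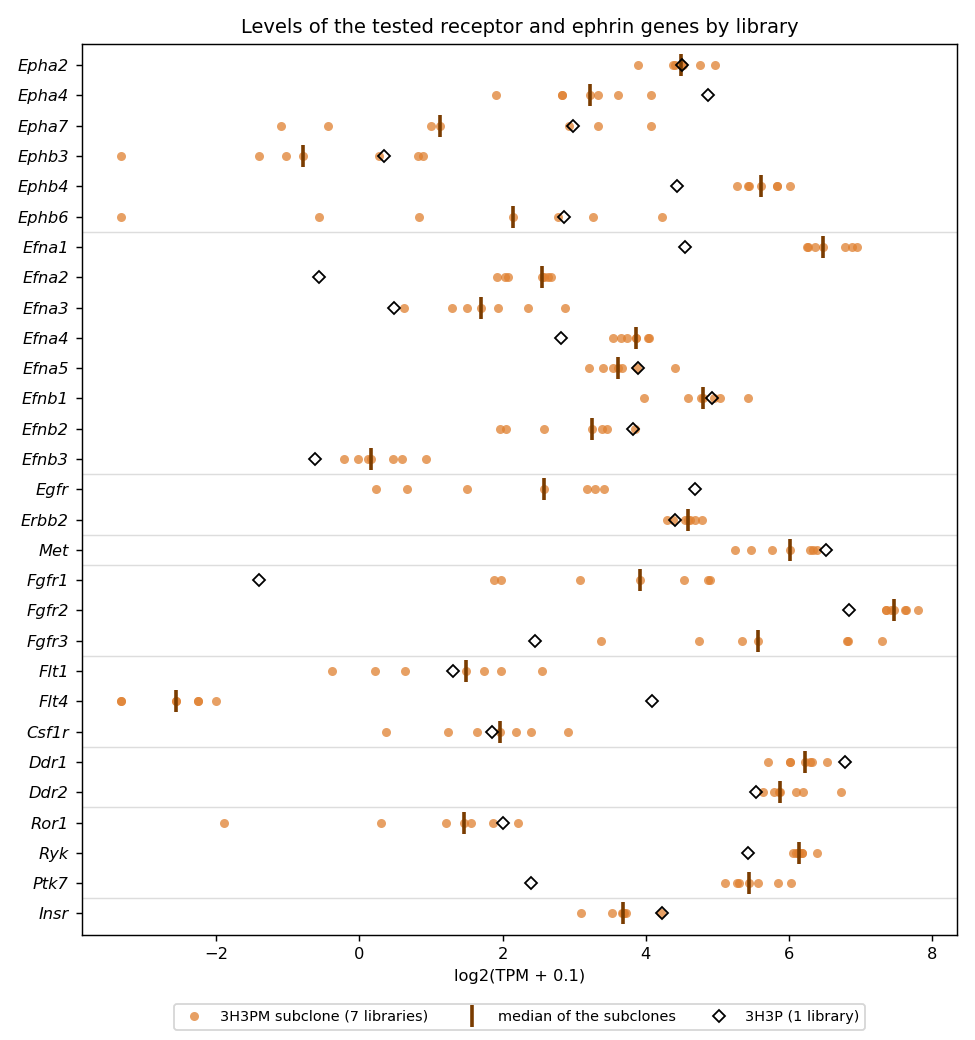
Level of each of the 29 tested genes as log2(TPM + 0.1), grouped by family. Filled points are the 7 subclones of 3H3PM, vertical ticks their median, and open diamonds the single 3H3P library. Among the called genes, the diamond lies left of every subclone for Ephb4, Efna1, Efna2, Fgfr1, Ryk and Ptk7, and right for Egfr and Flt4. Among genes not called, it also lies left of every subclone for Efna3, Efna4, Efnb3, Fgfr2, Fgfr3 and Ddr2. It lies right of every subclone for Epha4, Met, Ddr1 and Insr, which were not called either.

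Of the 29 tested genes 6 were called higher in the subclones and 2 lower. The higher ones were Ephb4, Efna1, Efna2, Fgfr1, Ryk and Ptk7, and the lower ones were Egfr and Flt4. They were 20.7% and 6.90% of the tested genes of the list, beside 7.33% called higher and 11.8% called lower over all genes. The median log2 fold change was 0.07 over the 29 genes and 0.03 over all tested genes. By CPM, all 7 subclones were above the library labelled 3H3P for 12 of the 29 genes, beside 27.1% of all tested genes. All 7 were below it for 7, beside 30.4%. A single 3H3P library has no measurable variation, and the test takes it to vary like the subclones. The calls of Egfr and Fgfr1 lay near the threshold and were lost in several alternatives, as given below. Those of Ephb4, Efna1, Efna2, Ryk, Ptk7 and Flt4 were made in every alternative that tested them.

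**Figure D2:**
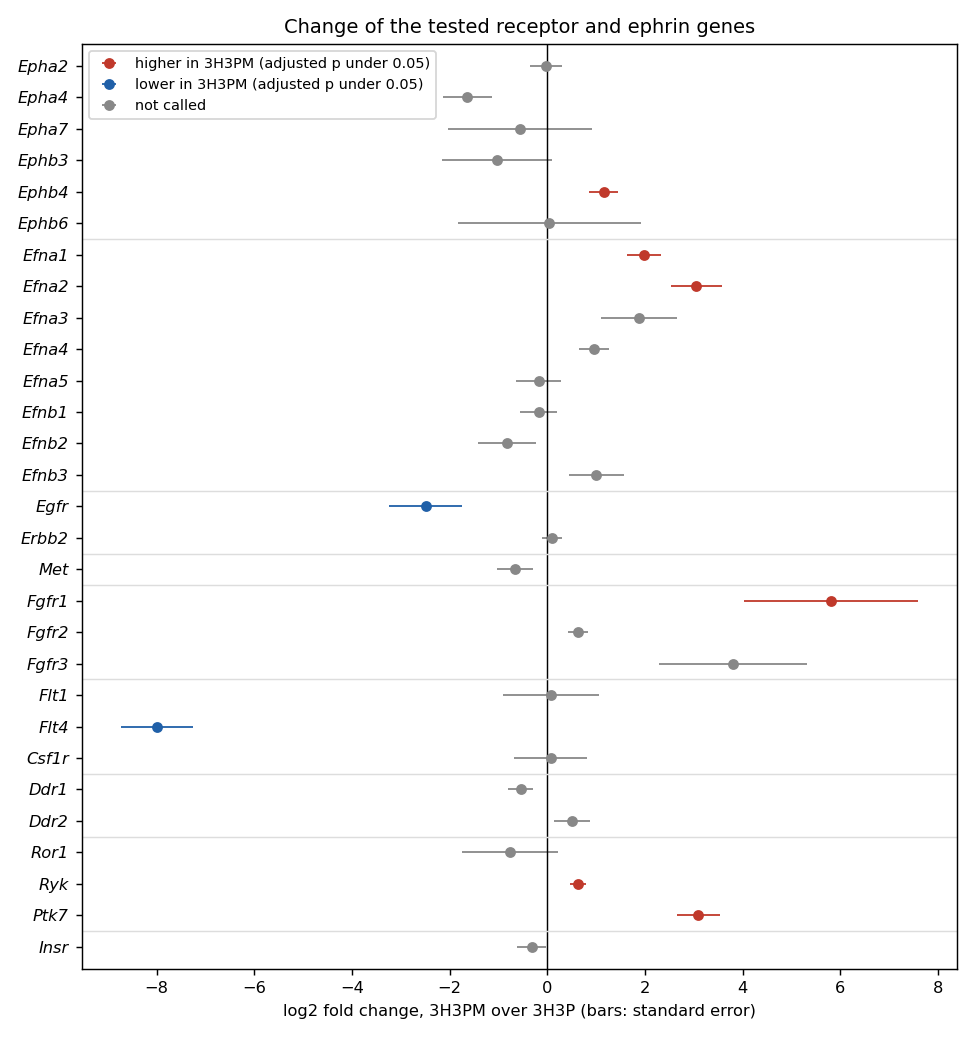
Log2 fold change of the 29 tested genes, 3H3PM over 3H3P, with its standard error as a bar. Red points are the 6 genes called higher in the subclones, blue points the 2 called lower, and grey points the 21 that were not called.

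The promoters of these 6 genes are printed because they are the members whose calls held throughout, 5 of them higher and 1 lower in the subclones. Each line gives the 250 bases before the RefSeq transcription start on GRCm38.p6, 5′ to 3′ on the strand of the gene. For Efna1, which has 2 starts in the table, the one farther upstream is shown. Capitals mark matches, on either strand, to the GC box GGGCGG, the CCAAT box CCAAT or the TATA box TATAAA.
Ptk7, chr17:46629505-46629754, minus strand: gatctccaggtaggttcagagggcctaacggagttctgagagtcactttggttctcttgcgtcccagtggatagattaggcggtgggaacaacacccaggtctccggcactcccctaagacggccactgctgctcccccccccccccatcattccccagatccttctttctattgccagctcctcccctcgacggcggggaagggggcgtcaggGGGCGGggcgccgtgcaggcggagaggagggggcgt
Efna1, chr3:89280952-89281201, minus strand: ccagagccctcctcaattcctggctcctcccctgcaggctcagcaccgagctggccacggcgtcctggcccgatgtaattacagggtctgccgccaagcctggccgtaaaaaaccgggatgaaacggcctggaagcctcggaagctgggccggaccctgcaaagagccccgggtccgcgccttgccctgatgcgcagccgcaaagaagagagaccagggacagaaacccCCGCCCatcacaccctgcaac
Efna2, chr10:80179232-80179481, plus strand: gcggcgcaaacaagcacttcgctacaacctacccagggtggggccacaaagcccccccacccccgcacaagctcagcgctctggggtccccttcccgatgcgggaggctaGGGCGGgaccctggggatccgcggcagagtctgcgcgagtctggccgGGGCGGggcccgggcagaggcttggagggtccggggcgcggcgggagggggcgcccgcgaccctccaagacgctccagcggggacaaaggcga
Ephb4, chr5:137349859-137350108, plus strand: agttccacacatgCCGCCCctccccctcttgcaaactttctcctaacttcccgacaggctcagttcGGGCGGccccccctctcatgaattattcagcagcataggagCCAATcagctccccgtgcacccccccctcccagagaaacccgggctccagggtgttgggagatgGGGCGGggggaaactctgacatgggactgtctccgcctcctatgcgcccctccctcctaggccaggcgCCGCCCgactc
Ryk, chr9:102834670-102834919, plus strand: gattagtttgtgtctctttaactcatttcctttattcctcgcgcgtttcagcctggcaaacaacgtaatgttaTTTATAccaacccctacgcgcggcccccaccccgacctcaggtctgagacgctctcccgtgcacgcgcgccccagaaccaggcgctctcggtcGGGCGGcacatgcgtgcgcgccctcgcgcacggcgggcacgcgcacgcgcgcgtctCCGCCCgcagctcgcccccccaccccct
Flt4, chr11:49609429-49609678, plus strand: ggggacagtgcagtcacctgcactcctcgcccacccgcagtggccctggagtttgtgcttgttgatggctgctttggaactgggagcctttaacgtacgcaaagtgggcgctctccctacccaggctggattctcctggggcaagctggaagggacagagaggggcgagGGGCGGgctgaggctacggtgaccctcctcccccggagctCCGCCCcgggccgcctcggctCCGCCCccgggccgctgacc
The GC box, bound by SP1-like factors, was present in all 6 windows, with 4 matches for Ephb4 and 3 for Flt4, and in 32.7% of the 32851 windows of the same length before all RefSeq starts. It was also found before genes of the list that were not called, with 5 matches for Ephb6, and before untested ones, with 6 for Epha8. Of the 50 windows of the list, those of called genes included, 35 held it. The E-box CACGTG, to which MYC with MAX binds, had no match in any of the 6, and 6.02% of all windows hold it. The AP-1 site TGANTCA had no match in them either, beside 6.75% of all windows. A CCAAT box was found before Ephb4 alone and a TATA box before Ryk alone, beside 33.8% and 12.4% of all windows. CpG dinucleotides numbered 12 before Ephb4 and 33 before Ryk, against a median of 6 over all windows. Sequences were matched for 41 of the 48 genes, and in those windows CACGTG occurred before Epha8 and Met. A match describes letters in this window and is not a binding site.

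Of the 5 A-type ephrins, Efna1 and Efna2 were called higher in the subclones and the others were not called. Efna1, the main ligand of EphA2, ranged from 76.3 to 123 TPM in the subclones with a median of 89.0 TPM, against 23.3 TPM in 3H3P. The 3 highest subclones were 1, 2 and 3, and the lowest subclone was still far above 3H3P. Its log2 fold change was 1.97 (SE 0.35, edgeR adjusted p = 0.00574), higher in 7 of 7 subclones. Efna2, a ligand studied mostly in the developing visual system, ranged from 3.70 to 6.31 TPM with a median of 5.77 TPM in the subclones, against 0.58 TPM in 3H3P. It had 13 counts in 3H3P, or 0.809 CPM with an exact binomial 95% interval of 0.431 to 1.38 CPM, and averaged 6.76 ± 1.49 CPM in the subclones (SD, n = 7). The log2 fold change of Efna2 was 3.05 (SE 0.53, adjusted p = 0.00508). Efna4 stood at 11.6 to 16.4 TPM with a median of 14.4 TPM in the subclones, against 6.92 TPM in 3H3P. Its groups did not overlap, but it just missed the threshold (log2 fold change 0.96, SE 0.30, adjusted p = 0.0544). DESeq2 called Efna4 with an adjusted p of 0.0142, and the alternatives ran from 0.0142 to 0.0939. Efna3 was at 1.44 to 7.22 TPM in the subclones and 1.30 TPM in 3H3P and was not called (log2 fold change 1.89, SE 0.78, adjusted p = 0.122). Efna5, which acts in axon guidance and cell adhesion, was at 9.10 to 21.1 TPM with a median of 12.1 TPM in the subclones and 14.8 TPM in 3H3P, inside the range of the subclones.

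B-type ephrins did not pass the test. Efnb1, whose loss causes craniofacial malformation, was at 15.6 to 42.9 TPM with a median of 27.7 TPM in the subclones and 30.4 TPM in 3H3P. Efnb2, the ligand of EphB4 that marks arterial endothelium, was at 3.82 to 14.4 TPM with a median of 9.38 TPM in the subclones, against 14.0 TPM in 3H3P (log2 fold change −0.82, SE 0.59, adjusted p = 0.362). By CPM it was below 3H3P in 7 of 7 subclones, at 11.8 to 44.4 CPM against 46.8 CPM. Efnb3 stayed at or under 1.80 TPM in the subclones and was at 0.55 TPM in 3H3P. Over all 8 ephrins, 2 were called higher, 0 lower and 6 not called, with a median log2 fold change of 0.98. The called genes were 25% higher and 0% lower, beside 7.33% and 11.8% of all tested genes. At an unadjusted p under 0.05 edgeR gave 4 ephrins higher and 0 lower. DESeq2 called 3 higher and 0 lower, and limma-voom 2 and 0. The shares of all tested genes given above are for edgeR's adjusted p alone. Their summed level was 125 to 197 TPM in the subclones, against 91.8 TPM in 3H3P, and Efna1 was the most abundant of them in every subclone.

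Among the 12 Eph receptors 6 were tested, and Ephb4 was the only one called. EphB4 binds ephrin-B2 and is known from venous endothelium. Ephb4 ranged from 38.6 TPM in subclone 9 to 64.7 TPM in subclone 2, with a median of 48.9 TPM, against 21.6 TPM in 3H3P. All 7 subclones were above 3H3P (log2 fold change 1.15, SE 0.30, adjusted p = 0.0270). Epha2, a receptor of ephrin-A1 common in epithelial tumours, was at 14.7 to 31.2 TPM with a median of 22.4 TPM in the subclones and 22.6 TPM in 3H3P. Its groups overlapped, and its log2 fold change was −0.03 (SE 0.32, adjusted p = 0.966). Its ligand Efna1 thus rose beside a receptor mRNA for which no difference was detected. Epha4, which binds ephrins of both types, was at 3.65 to 16.8 TPM with a median of 9.18 TPM in the subclones, against 29.1 TPM in 3H3P. Every subclone lay below 3H3P, and the test fell just short (log2 fold change −1.64, SE 0.50, adjusted p = 0.0506). Without subclone 2 it was called at 0.0224, the lowest of its alternatives, which ran up to 0.110. Leaving out subclone 1 or 9 also gave calls. With all 7 subclones Epha4 was called by DESeq2 (adjusted p = 0.0266), limma-voom (0.0424) and edgeR with RLE size factors (0.0489). The other 9 of its 15 alternatives did not call it. Epha7, Ephb3 and Ephb6 differed widely among the subclones and are described with the spread below. The remaining 6 Eph receptors were not tested. Epha3, Epha5, Ephb1 and Ephb2 had no count in any library, which allows up to 3 counts in each, and Epha8 had 2 counts over all subclones and 0 in 3H3P. Epha1 had 23 counts over all subclones and 0 in 3H3P.

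Of the 3 tested receptors that bind WNT ligands, or act with their receptors, 2 were called higher and 0 lower. These were 66.7% and 0%, beside 7.33% and 11.8% of all tested genes. PTK7 is a pseudokinase of the planar cell polarity pathway. Ptk7 ranged from 34.3 TPM in subclone 1 to 65.3 TPM in subclone 8, with a median of 43.3 TPM, against 5.18 TPM in 3H3P. The lowest subclone was several times above 3H3P, and the log2 fold change was 3.09 (SE 0.44, adjusted p = 0.00197). RYK is a WNT co-receptor whose kinase domain is also inactive. Ryk was at 66.2 to 83.7 TPM with a median of 70.6 TPM in the subclones, against 43.1 TPM in 3H3P. Its change was small (log2 fold change 0.63, SE 0.16, adjusted p = 0.0233), and its subclones lay closest together of all 29 tested genes, with an SD of 0.08 in log2 CPM. Ror1, a receptor of WNT5A, was at 0.17 to 4.56 TPM in the subclones and 3.92 TPM in 3H3P. It was not called (log2 fold change −0.76, SE 0.99, adjusted p = 0.623). Ror2 had 4 counts over all subclones and 0 in 3H3P. Over the family the summed level was 111 to 138 TPM in the subclones, against 52.2 TPM in 3H3P.

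All 3 tested FGF receptor genes had higher levels in each subclone than in 3H3P, but only Fgfr1 was called, and at the edge. FGFR1 and FGFR2 occur in epithelial and mesenchymal splice forms that bind different FGFs, and gene counts do not separate these. Fgfr1 was at 29.7, 8.38, 29.1, 23.0, 15.0, 3.84 and 3.58 TPM in subclones 1, 2, 3, 6, 7, 8 and 9, against 0.28 TPM in 3H3P. The lowest subclones, 8 and 9, were still above 3H3P, where the gene had 11 counts (0.684 CPM, exact binomial 95% interval 0.342 to 1.22 CPM). Its log2 fold change was 5.81 (SE 1.78, adjusted p = 0.0492). Leaving out any one of subclones 1, 2, 3, 6 and 7 ended the call (adjusted p = 0.0508 to 0.0704), as did limma-voom (0.323), and the alternatives spanned 0.000178 to 0.323. Fgfr3, a receptor for FGF9 and FGF18 in cartilage, was at 111, 157, 113, 47.2, 26.6, 10.3 and 40.4 TPM in subclones 1, 2, 3, 6, 7, 8 and 9, against 5.39 TPM in 3H3P. Subclones 1, 2 and 3 were the highest and subclone 8 the lowest. The spread left it short of the threshold (log2 fold change 3.80, SE 1.51, adjusted p = 0.108), though without subclone 8 it passed at 0.0418 and DESeq2 gave 0.0175 (0.0175 to 0.243 over the alternatives). Fgfr2 was at 163 to 222 TPM with a median of 177 TPM in the subclones, against 114 TPM in 3H3P. Those groups did not overlap, and the change was not called (log2 fold change 0.63, SE 0.21, adjusted p = 0.0652). With library size alone as the scaling it was called at 0.0410 (0.0305 to 0.0888 over the alternatives). Fgfr4, the form typical of hepatocytes, had no count in any library. The summed level of the family was 210 to 340 TPM in the subclones and 120 TPM in 3H3P.

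In the ErbB family Egfr was lower and Erbb2 was not called. EGFR binds EGF, TGF-alpha and amphiregulin, and ERBB2 has no known ligand and acts as a partner of the others. Egfr was at 1.07, 1.49, 2.73, 5.89, 8.97, 10.6 and 9.73 TPM in subclones 1, 2, 3, 6, 7, 8 and 9, against 25.7 TPM in 3H3P. Every subclone lay below 3H3P, and subclones 1, 2 and 3, which had the highest Fgfr3, had the lowest Egfr. The log2 fold change was −2.49 (SE 0.74, adjusted p = 0.0453). Leaving out subclone 3 (adjusted p = 0.0775), subclone 6 (0.0683) or subclone 9 (0.0614) ended the call, as did scaling by library size alone (0.0502) and the TPM scale (up to 0.197). The alternatives spanned 0.0201 to 0.197. The mean transcript length by which TPM is divided was 5480 to 10208 bases for Egfr in the subclones and 8082 bases in 3H3P, so its TPM and count differences are not the same. Erbb2 was at 19.5 to 27.4 TPM with a median of 23.9 TPM in the subclones and 21.1 TPM in 3H3P, overlapping (log2 fold change 0.10, SE 0.21, adjusted p = 0.784). Erbb3 and Erbb4 were near 0, with 14 and 2 counts over all subclones and 5 and 0 in 3H3P. Met, the receptor of hepatocyte growth factor, was at 37.7 to 83.7 TPM with a median of 64.7 TPM in the subclones, against 91.7 TPM in 3H3P. All 7 subclones were below 3H3P without passing the test (log2 fold change −0.65, SE 0.37, adjusted p = 0.248), and the order again ran with subclones 1, 2 and 3 lowest. Mst1r, the other receptor of the family, had 18 counts over all subclones and 0 in 3H3P.

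Flt4 showed the steepest fall of the list. It encodes VEGFR3, the receptor for VEGF-C and VEGF-D on lymphatic endothelium. The level was 0 to 0.15 TPM with a median of 0.07 TPM in the subclones, against 16.9 TPM in 3H3P. Counts were 30 over all 7 subclones and 1191 in 3H3P. The log2 fold change was −7.99 (SE 0.73, adjusted p = 0.000296). Other endothelial receptors were almost absent from both groups. Kdr (VEGFR2) had 1 count over all subclones and 0 in 3H3P, Tek likewise 1 and 0, and Tie1 had none. Flt1 (VEGFR1) was at 0.67 to 5.78 TPM in the subclones and 2.37 TPM in 3H3P, with the groups overlapping (adjusted p = 0.967). A list of 10 endothelial markers that holds none of these receptors summed to 24.1 to 36.3 TPM in the subclones and 9.63 TPM in 3H3P. Of these markers Egfl7 alone was called, higher at 20.4 to 33.3 TPM in the subclones against 4.01 TPM in 3H3P, and Emcn and Cldn5 had no count in any library. Without Egfl7 the other 9 markers summed to 2.30 to 5.80 TPM in the subclones and 5.62 TPM in 3H3P, lower in 6 of 7 subclones. Most of that sum in 3H3P was Esam, whose groups overlapped and which was not called. Vwf was at 0.03 to 0.68 TPM in the subclones and 1.77 TPM in 3H3P, below it in 7 of 7. Pecam1 and Tal1 went the other way. Pecam1 was at 0.04 to 0.42 TPM in the subclones and 0 in 3H3P, above it in 7 of 7. Tal1 was at 0 to 1.73 TPM in the subclones and 0.03 TPM in 3H3P, above it in 6 of 7. Vwf, Pecam1 and Tal1 were not called (adjusted p = 0.163, 0.0707 and 0.359). The part of endothelial cells in the level of Flt4 was not tested. Csf1r, the macrophage colony-stimulating factor receptor, was at 1.20 to 7.46 TPM in the subclones and 3.52 TPM in 3H3P (adjusted p = 0.960). Subclone 2, the lowest for Csf1r, was the one library with counts of every C1q gene and of Tyrobp, each under 1 TPM. Kit, the stem cell factor receptor, had 0 counts over the subclones and 2 in 3H3P, and Flt3 had none.

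The collagen receptors and the insulin receptor were abundant and not called. DDR1 is typical of epithelia and DDR2 of mesenchymal cells. Ddr1 was at 52.3 to 92.1 TPM with a median of 74.5 TPM in the subclones, against 110 TPM in 3H3P, below it in 7 of 7 (log2 fold change −0.55, SE 0.25, adjusted p = 0.165). Ddr2 was at 49.7 to 106 TPM with a median of 58.6 TPM in the subclones, against 46.3 TPM in 3H3P, above it in 7 of 7 (log2 fold change 0.51, SE 0.36, adjusted p = 0.359). Insr was at 8.48 to 18.4 TPM with a median of 12.7 TPM in the subclones and 18.6 TPM in 3H3P (log2 fold change −0.32, SE 0.30, adjusted p = 0.488). Ntrk3, a neurotrophin receptor, reached 0.72 TPM in subclone 7, the highest level of any untested gene of the list, and was at 0.01 TPM in 3H3P. Ntrk2 had no count, and Ret, the receptor for the GDNF family, had 1 count over the subclones and 1 in 3H3P.

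Several of these receptors set the subclones apart from one another. The SD of log2 CPM over the 7 subclones was above 1 for 9 of the 29 tested genes, beside 9.53% of all tested genes. They were Epha7, Ephb3, Ephb6, Egfr, Fgfr1, Fgfr3, Flt1, Flt4 and Ror1. Flt4 was near the floor in the subclones, at 0 to 0.623 CPM with 30 counts over all 7. Its spread is therefore one of a few counts per library. Each subclone has 1 library, so this spread is a description with no test. Ephb6, a kinase-inactive Eph receptor, had the widest range, at 18.7, 9.48, 6.71, 0.58, 4.33, 0 and 1.68 TPM in subclones 1, 2, 3, 6, 7, 8 and 9, against 7.18 TPM in 3H3P. Epha7, known from neural development, was at 0.64, 0.37, 1.90, 7.51, 16.7, 2.08 and 9.99 TPM in the same order, against 7.78 TPM in 3H3P. Ephb6 was thus highest where Epha7 was lowest, in subclones 1 and 2. Ephb3, an intestinal and progenitor receptor, was at 0 to 1.75 TPM in the subclones and 1.17 TPM in 3H3P. By CPM it was below 3H3P in 7 of 7 subclones, at 0 to 2.19 CPM against 2.49 CPM. Its mean transcript length was 1665 to 4319 bases in the subclones and 3150 bases in 3H3P, so its TPM and CPM differ. Subclone 8 was the lowest of the 7 for 9 of the 29 genes, beside 20.2% of all tested genes, and subclone 3 for 0, beside 5.66%. Without subclone 8 the number of genes with an SD above 1 was 5, beside 8.39% of all tested genes, and Ephb3, Flt1, Flt4 and Ror1 were no longer among them. Simple epithelial markers had their lowest sum, 69.1 TPM, in subclone 8, and their part in these levels was not tested. At the other end, the SD was 0.18 for Fgfr2, 0.19 for Erbb2 and 0.20 for Efna4, beside a median of 0.32 over all tested genes.

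**Figure D3:**
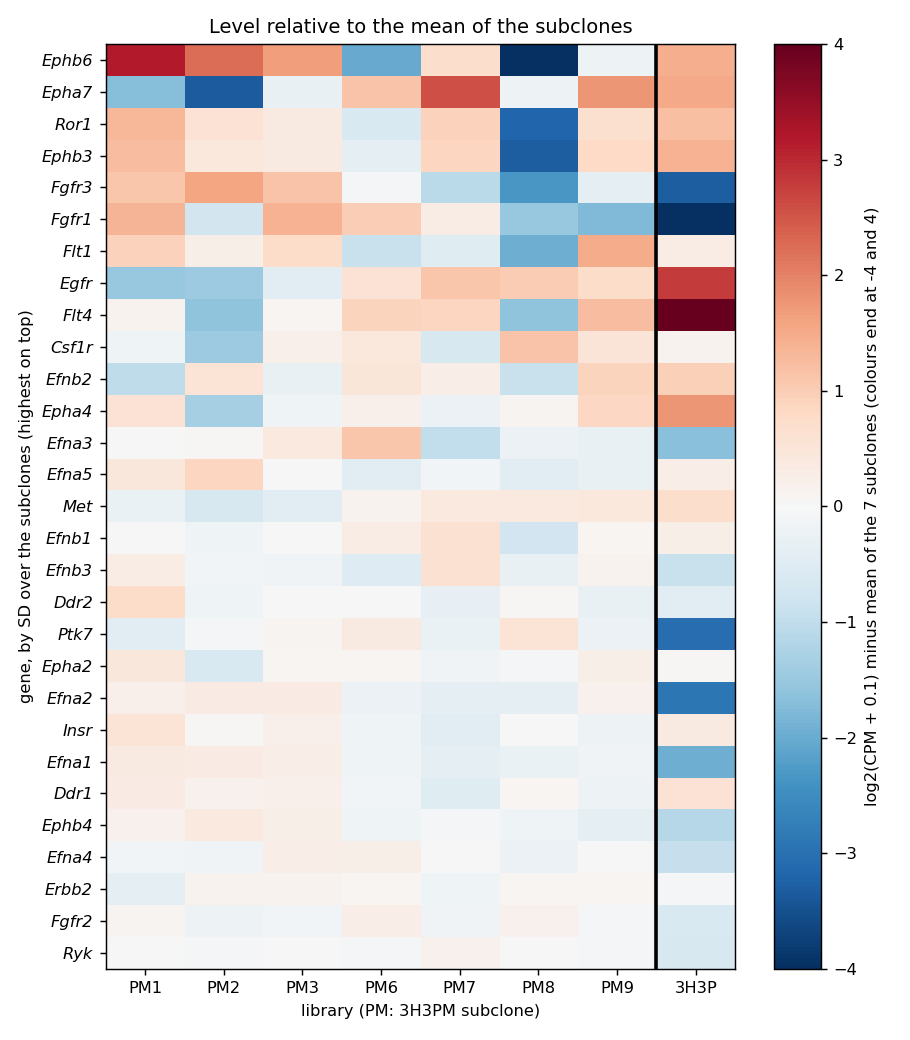
Level of the 29 tested genes in each library as log2(CPM + 0.1) minus the mean of the 7 subclones, in order of their SD over the subclones. Columns are the subclones (PM1 to PM9) and, right of the line, 3H3P. Ephb6 and Epha7 at the top vary most, and Ryk at the bottom varies least.

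Of 152 genes in 8 lists of ligands, co-receptors, adaptors, regulators and other receptor kinases, 116 were tested, 8 were called higher (6.90%) and 19 lower (16.4%), beside 7.33% and 11.8% of all tested genes, with a median log2 fold change of −0.11. Of 10 tested ErbB ligands only Tgfa was called, lower. Tgfa was at 0.79 to 5.20 TPM in the subclones with a median of 1.75 TPM, against 19.1 TPM in 3H3P (log2 fold change −3.38, SE 0.69, adjusted p = 0.0107). It thus lay below 3H3P together with its receptor Egfr. Of 16 tested ligands of other receptors 6 were called lower (37.5%) and 0 higher, beside 11.8% and 7.33% of all tested genes. At an unadjusted p under 0.05 edgeR gave 1 higher and 7 lower. DESeq2 called 0 higher and 5 lower, and limma-voom 0 and 6. The shares just given are for edgeR's adjusted p alone. The median log2 fold change of these 16 was −1.31. Kitl, the ligand of KIT, was at 0.71 to 7.20 TPM in the subclones, against 36.2 TPM in 3H3P (log2 fold change −4.30, SE 0.71, adjusted p = 0.00429), and its receptor was near 0 in both. Mst1, the ligand of the receptor encoded by Mst1r, was at 0 to 0.53 TPM in the subclones and 9.18 TPM in 3H3P (log2 fold change −6.33, SE 0.95, adjusted p = 0.00267). Csf1 was at 45.6 to 148 TPM in the subclones and 312 TPM in 3H3P (log2 fold change −1.86, SE 0.51, adjusted p = 0.0329). That call was lost without subclone 6 (adjusted p = 0.0552) and on the TPM scale (0.00999 to 0.0726 over the alternatives). Wnt5a had 3 counts over all subclones and 15 in 3H3P, a ratio of 0.0301 with a 95% counting interval of 0.00558 to 0.106. Its call by edgeR (adjusted p = 0.0233) was lost with DESeq2 (0.270), and the alternatives spanned 0.00339 to 0.270. Vegfc and Bdnf, named after their values were seen, were the other two called lower. Vegfc, a ligand of the receptor encoded by Flt4, was at 2.59 to 9.12 TPM in the subclones and 12.9 TPM in 3H3P (adjusted p = 0.0379). Hgf, also named after its values were seen, had 0 counts over the subclones and 1 in 3H3P.

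FGF ligands and co-receptors had 1 call in each direction among 9 tested genes (11.1% each), beside 7.33% higher and 11.8% lower over all tested genes. Fgf18 was at 0 to 0.45 TPM in the subclones, against 18.1 TPM in 3H3P, with 9 counts over all subclones and 171 in 3H3P (log2 fold change −6.90, SE 0.95, adjusted p = 0.00170). Fgfrl1, a receptor-like protein without a kinase domain, was at 15.9 to 37.4 TPM in the subclones and 9.63 TPM in 3H3P (log2 fold change 1.22, SE 0.33, adjusted p = 0.0331). Its call was lost without subclone 3, 6 or 9 (up to 0.0602) and on the TPM scale (0.00401 to 0.0630 over the alternatives). None of the 3 tested co-receptors of other receptors was called by edgeR. At an unadjusted p under 0.05 edgeR gave 0 higher and 1 lower, DESeq2 called 0, and limma-voom called 1 lower.

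Inside the cell, adaptors and effectors gave 2 rises (5.56%) and 7 falls (19.4%) among 36 tested genes, beside 7.33% and 11.8% of all tested genes, with a median log2 fold change of 0.01. Gab2, a docking protein for PI3-kinase and SHP2, was at 0.29 to 1.57 TPM in the subclones and 17.4 TPM in 3H3P (log2 fold change −4.29, SE 0.52, adjusted p = 0.00102). Nck1, Dok1 and Grb7 fell by 1.12, 1.45 and 1.27 on the log2 scale. Negative regulators gave 2 rises and 2 falls among 21 (9.52% each). Lrig1, which promotes the breakdown of ErbB receptors, was at 3.35 to 8.58 TPM in the subclones and 29.8 TPM in 3H3P (log2 fold change −2.37, SE 0.37, adjusted p = 0.00312), while its relative Lrig3 was at 8.29 to 21.4 TPM and 2.95 TPM (log2 fold change 2.30, SE 0.50, adjusted p = 0.0132). The phosphatase gene Ptprj fell by 1.08 and the ubiquitin ligase gene Cbl rose by 0.85. Effectors of Eph receptors and ephrins gave 2 rises and 2 falls among 17 (11.8% each). The exchange factor genes Vav3 and Vav2 went opposite ways, Vav3 at 14.4 to 21.8 TPM in the subclones against 2.83 TPM in 3H3P (log2 fold change 2.20, SE 0.29, adjusted p = 0.00142) and Vav2 at 10.5 to 17.2 TPM against 33.0 TPM (log2 fold change −1.20, SE 0.22, adjusted p = 0.00701). Kalrn fell by 0.95, a call lost on the TPM scale (adjusted p up to 0.114; from 0.00281 over the alternatives). Arhgef15 was at 0.36 to 1.66 TPM in the subclones and had 0 counts in 3H3P, at least 9.52-fold higher against 3 counts there. Among 4 tested other receptor kinases Ltk was called, with 106 counts over the subclones and 0 in 3H3P, at least 5.31-fold higher. Its call was lost with limma-voom (adjusted p = 0.0596) and on log2(TPM + 1), with 0.0183 to 0.0923 over the alternatives. The call of Arhgef15 was lost on log2(TPM + 1) alone (0.00379 to 0.0801).

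Efna1, Efna3 and Efna4 lie side by side on the minus strand of chromosome 3, from 89271733 to 89338028 on GRCm38, and each was above 3H3P in 7 of 7 subclones. This neighbourhood was examined after its values were seen. Of 33 tested genes in a window reaching 200 kb beyond either end of Efna1, 7 were called higher, Efna1 among them, and 2 lower, beside 7.33% and 11.8% of all tested genes. Their median log2 fold change was 0.42, with 22 of 33 above 0. The other genes called higher were Clk2, Thbs3, Gm15998, Pygo2, Pmvk and the RTK adaptor gene Shc1. Pklr and Pbxip1 were called lower, with log2 fold changes of −8.05 and −2.68.

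**Figure D4:**
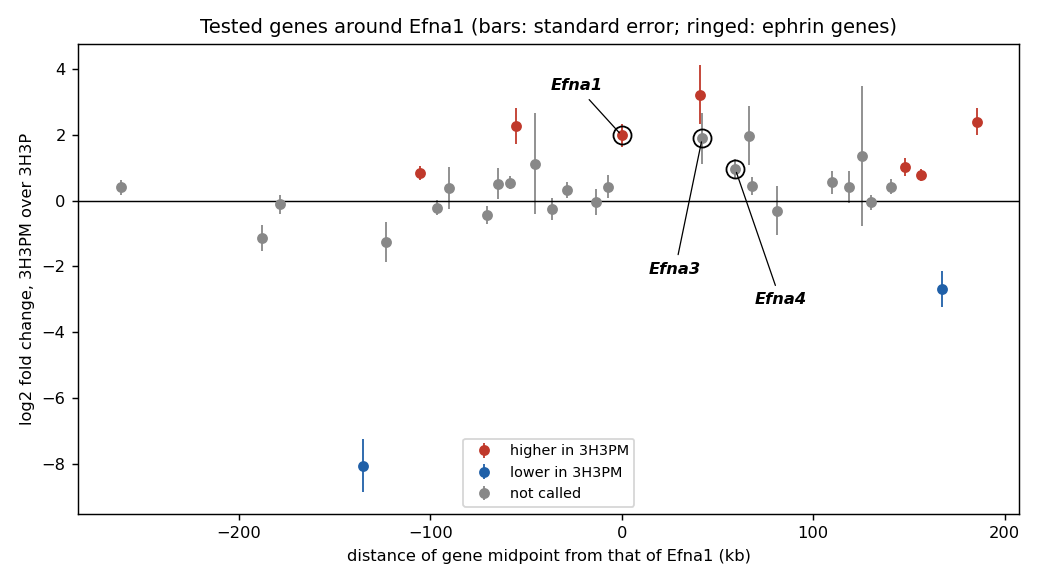
Log2 fold change, 3H3PM over 3H3P, of the 33 tested genes around Efna1, by the distance of their midpoints from that of Efna1 in kb, with standard errors as bars. The ringed ephrin genes Efna1, Efna3 and Efna4 stand at 1.97, 1.89 and 0.96, among 7 genes called higher (red), 2 called lower (blue) and 24 not called (grey).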

How the data were processed

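The authors deposited, per the file headers, per gene and library an RSEM expected count, transcript lengths, TPM and FPKM. The tools named, per the submitters' processing notes, were STAR, RSEM, FastQC and DESeq2, and the build was GRCm38 (mm10), with versions, options, annotation and strand setting not given in the sources used here. Libraries were made with a directional kit, per the labels' protocols. The expected counts deposited by the authors were rounded to whole numbers. The test was the quasi-likelihood F test of edgeR 4.0.16 in R 4.3.3, by glmQLFit and glmQLFTest after filterByExpr and TMM scaling, with Benjamini-Hochberg adjustment over 14634 genes. The 8 libraries left 6 residual degrees of freedom, all from the subclones. CPM is TMM-scaled. The TPM deposited by the authors gave levels and alternatives, and FPKM was not used. SE denotes the size of a log2 fold change over the square root of F. SDs of log2 CPM used a prior count of 2. Bounds against 0 counts use 3 counts over the group, and intervals are 95% exact binomial, covering counting error only. Alternatives were DESeq2 1.42.0, limma 3.58.1 (voom on counts, and on log2(TPM + 0.1) and log2(TPM + 1)), other scalings and filters, and each subclone left out. RSEM divides reads shared between genes, and values of Fgfr2, Fgfr3 and Csf1r were not whole (tolerance 0.01). Positions come from GENCODE vM21, and promoters from RefSeq. The test was also run on simulated data with known changes. There the single 3H3P library was drawn to vary like the subclones, so that assumption was not checked.

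The members and lists were chosen with earlier results of these data known. Values were given per library, or as lowest, median and highest, for members called or at 10 TPM or more in a group, and up to 4 called genes per list by smallest p were named.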

Additional observations from a re-analysis of the deposited data

Results flagged for a closer look

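For each of the 29 tested genes the gap between the most extreme subclone and its nearest neighbour was compared with the whole range of log2 CPM over the 7 subclones, and 2 genes passed Dixon's 95% critical value for 7 samples. Ephb3 in subclone 8 was far below the other subclones, with 0 counts there and a gap of 0.627 of the range. Ddr2 in subclone 1 was far above them, at 106 TPM beside 73.3 TPM in the next subclone, with a gap of 0.631 of the range. Chance flags about 1 in 20 such groups.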

How the results depend on the processing

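No paired analysis was possible because 3H3P has 1 library. The 6 rises became 5 to 9 and the 2 falls 1 to 3 over the alternatives. A single gene was called lower under library size alone (1), on log2(TPM + 0.1) (1) and log2(TPM + 1) (1), where Egfr was not called, and with at least 1 CPM in at least 4 libraries (1), where Flt4 was not tested. Leaving out single subclones gave 1 to 3 lower members, and 5 to 9 members with an SD above 1. The matching share of all tested genes without each subclone was added after seeing the data. DESeq2 called 9 members higher and 3 lower, and it also called more genes in all, 3411. Over all genes edgeR called 2799, and 1991 without subclone 3. The share of calls that were higher was 38.3% by edgeR, 49.1% by DESeq2 and 50.3% on log2(TPM + 0.1). Without a filter the median log2 fold change of all genes was 0.21, against 0.03.

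Among the members, direction changed for 4 genes, none of them called. Epha2 (−0.03) was at 0.054 with library size alone, 0.0093 without a filter, and −0.11 to 0.067 without single subclones. Ephb6 (0.05) was at −1.53 by limma-voom, −1.53 and −0.87 on log2(TPM + 0.1) and log2(TPM + 1), and −0.62 to 0.29 without single subclones. Flt1 (0.07) was at −0.26, −0.13 and −0.024 under the same settings and −0.24 to 0.27 without single subclones. Csf1r (0.07) was at −0.14 by limma-voom, −0.038 on log2(TPM + 0.1), and −0.16 to 0.23 without single subclones. The cause of these changes was not tested.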

Other observations

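RNAs annotated on the opposite strand of some members were noticed after their values were seen. Gm15998, which overlaps Efna3, had 71, 63, 52, 51, 31, 37 and 14 counts in subclones 1, 2, 3, 6, 7, 8 and 9, against 5 in 3H3P (log2 fold change 3.21, SE 0.90, edgeR adjusted p = 0.0359). Efna3 itself had 503 counts over the subclones and 20 in 3H3P. G630022F23Rik, which overlaps Fgfr3, had 33, 33, 31, 10, 0, 3 and 4 counts in the same order, against 1 in 3H3P, and was not called (adjusted p = 0.280). Its highest subclones, 1, 2 and 3, were also the highest for Fgfr3. 4731419I09Rik, which overlaps Efna4, had 110 counts over the subclones and 4 in 3H3P. It was not called (log2 fold change 1.97, SE 0.89, edgeR adjusted p = 0.153). Efna4 itself had 1441 counts over the subclones and 111 in 3H3P. Since the strand setting of the counting is not given, reads of each pair may not be fully separated, and this was not tested. For the called members the overlapping RNAs were scarce, with 15 counts of Zan over Ephb4, 14 of Egfros over Egfr and 8 of Gm26904 over Ptk7 in all subclones, and 11, 10 and 5 in 3H3P. Mien1, which overlaps Erbb2, had 1517 counts over the subclones and 486 in 3H3P, and was not called (adjusted p = 0.0535). Fgfr2, whose annotated span holds many other genes, was left out of this comparison.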
